A study of Homo sapiens with 18 samples.

Results

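The 10 genes described here belong to the endoplasmic reticulum (ER) folding machinery and to the unfolded protein response, and were measured in PMA-differentiated THP-1 cells. They were the 10 rows of the gene table whose symbol is HSPA5, HSP90B1, CALR, CANX, PDIA4, PDIA6, DNAJB9, SDF2L1, XBP1 or HERPUD1, out of 60623 genes, and each of the 10 was found once. THP-1 is an established human leukaemia line of monocytic origin, and the phorbol ester PMA makes it adopt a macrophage-like state. All libraries came from cells given 100 nM PMA for 24 h. The 3 engineered lines expressed human Siglec-14 (S14), human Siglec-5 (S5) or carried an empty vector (EV), and each was kept in medium with 50% SW620-conditioned medium (CM) for 48 h or was mock treated. SW620 is a human colorectal cancer line. The 6 groups, S14 CM, S14 mock, S5 CM, S5 mock, EV CM and EV mock, held 3 RNA-seq libraries each. The labels do not say whether a line is 1 clone or a pool, which promoter drives the receptor, what the mock medium held, or whether replicates came from separate cultures. The p-values therefore cover only the spread between these libraries, which may be technical.

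Proteins that enter the ER fold with the help of chaperones, lectin-like chaperones that hold glycosylated chains, and enzymes that form disulfide bonds. When unfolded chains accumulate, the sensors IRE1, ATF6 and PERK are released from the chaperone BiP. IRE1 then removes a short intron from XBP1 mRNA, ATF6 is cut to release a transcription factor, and both raise chaperone and degradation genes, many of them through promoter elements called ERSE. PERK instead phosphorylates a translation initiation factor, as does the amino acid sensor GCN2, and the factor ATF4 then raises amino acid transport, amino acid synthesis and tRNA synthetase genes, many of them through an element called CARE. Macrophages make their cytokines, surface receptors and lysosomal enzymes through the ER.

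The promoter sequences of the 10 genes are shown first because they tell apart which members carry the ERSE letters and which carry the CARE letters. RefSeq promoter windows (GRCh38.p14, from 250 bases before to 50 after each start) were matched for all 10 members, 16 windows in all. Both strands were searched for ERSE (CCAAT, any 9 bases, CCACG), ERSE-II (ATTGG, any 1 base, CCACG), the XBP1-binding element UPRE (TGACGTGG) and CARE (TGATG, any 1 base, AA, any 1 base). ERSE was present for 6 members, HSPA5, HSP90B1, CALR, CANX, PDIA6 and XBP1, and in 0.0769% of all 35116 windows. The ERSE matches are printed 5′ to 3′ with 5 flanking bases on each side, and the capitals mark the fixed letters of the motif.
HSPA5, chr9:125241386-125241414, minus strand: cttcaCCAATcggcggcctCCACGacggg
HSP90B1, chr12:103930211-103930239, plus strand: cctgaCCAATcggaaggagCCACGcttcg
HSP90B1, chr12:103930316-103930344, minus strand: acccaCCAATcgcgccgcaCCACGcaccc
CALR, chr19:12938379-12938407, minus strand: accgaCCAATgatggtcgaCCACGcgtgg
CANX, chr5:179698773-179698801, plus strand: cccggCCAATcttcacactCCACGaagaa
PDIA6, chr2:10812848-10812876, minus strand: ccggaCCAATgagccgcagCCACGgcttg
XBP1, chr22:28800598-28800626, minus strand: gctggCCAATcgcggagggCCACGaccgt

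ERSE-II was present for HERPUD1 and SDF2L1, and in 0.0541% of all windows. Of the 10 members HERPUD1 alone matched CARE, which is present in 3.61% of windows. The CARE letters were present for 15 of the 36 genes of an amino acid stress list that had a window, and ERSE and ERSE-II for 0 of them. UPRE, which is in 0.729% of windows, matched no member, and the windows of DNAJB9 and PDIA4 held none of the 4 motifs. The ERSE-II and CARE matches follow with the fixed letters in capitals.
HERPUD1 ERSE-II, chr16:56932020-56932040, plus strand: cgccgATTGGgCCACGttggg
HERPUD1 CARE, chr16:56931960-56931978, minus strand: cgggcTGATGcAAcccgcc
SDF2L1 ERSE-II, chr22:21642109-21642129, minus strand: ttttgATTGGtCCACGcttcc
The 156 bases of GRCh38.p14 just upstream of the first annotated HERPUD1 exon are shown whole because they hold both elements, in capitals, the CARE match as its reverse complement.
HERPUD1 upstream, chr16:56931892-56932047, plus strand: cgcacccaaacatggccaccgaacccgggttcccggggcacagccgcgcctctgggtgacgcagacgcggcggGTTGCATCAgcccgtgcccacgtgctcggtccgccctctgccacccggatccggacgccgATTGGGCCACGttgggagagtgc

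XBP1 mRNA carries a further sequence of note, the 26 bases that IRE1 removes. They are shown in capitals, with 15 flanking bases, as the difference between 2 XBP1 transcripts in GENCODE 29 (GRCh38), and their ends cannot be placed uniquely because the flanks repeat.
XBP1, chr22:28796109-28796164, minus strand: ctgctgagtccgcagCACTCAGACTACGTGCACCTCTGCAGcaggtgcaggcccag
The counts used here are per gene, so the spliced and unspliced forms of XBP1 were not separated and no value below measures IRE1 activity.

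The libraries held 14962531 to 26045281 counts. SIGLEC14, the gene introduced in the S14 line, was at 503 to 779.8 CPM in S14 CM and 554 to 926 CPM in S14 mock libraries, 29.5 to 44.1 CPM in S5 libraries and 13.0 to 22.7 CPM in EV libraries. CPM here is the count of a gene scaled to the TMM-adjusted library size. Of 10 macrophage markers, CD68 was at 0.525 to 1.62 CPM and MRC1 at no more than 1.72 CPM, and the other 8 were at 55.6 CPM or more in every library. In GENCODE 29, 81.7% of the exonic bases of CD68 are also exons of AC016876.2 on the same strand, and how shared reads were counted is not stated in the labels, so the CD68 value may understate its level. The epithelial markers EPCAM, KRT20, KRT19 and CEACAM5 were at 0 in all 18 libraries, and the summed level of 13 such markers was 1.31 to 8.63 CPM. CD3E was at 0 in all 18 libraries, and 10 lymphocyte markers summed to 16.6 to 38 CPM. The 6 libraries numbered replicate 3 stood apart. Genes of the mitochondrial chromosome took 4.94 to 5.85% of their counts, against 1.90 to 4.90% in the 12 libraries numbered 1 and 2, and their totals were 22571787 to 26045281 against 14962531 to 22315987 counts. The results below are therefore also given without replicate 3, from a fit of 12 libraries with 2 per group, and the part of the mitochondrial share in them was not tested.

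All 10 members were detected in every library, with 129 to 51464 counts, and all passed the filter on low counts. On the TPM scale, which divides by gene length, CALR averaged 1777 ± 366 TPM over the 18 libraries (SD), HSP90B1 728 ± 155, HSPA5 658 ± 88.3, CANX 447 ± 117 and PDIA6 278 ± 47.2. Lower on the same scale came PDIA4 at 122 ± 29.3, XBP1 at 112 ± 43.8, SDF2L1 at 71.4 ± 31.5, HERPUD1 at 68.9 ± 18.1 and DNAJB9 at 33.4 ± 12.0 TPM. Between neighbours in that order, the ranges over all libraries were apart for CALR above HSP90B1 and for PDIA6 above PDIA4. All other neighbours overlapped. HSP90B1 was above HSPA5 in 12 of 18 libraries, and SDF2L1 was above HERPUD1 in 8 of 18. Between the lowest and the highest library, CPM differed 6.43-fold for SDF2L1, 3.25-fold for DNAJB9, 2.92-fold for XBP1 and 1.86-fold to 2.43-fold for the other 7 members.

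The members higher in the S14 line were CANX, DNAJB9 and XBP1. DNAJB9 encodes ERdj4, a co-chaperone that delivers unfolded chains to BiP and restrains IRE1, and its gene lies at chr7:108569568-108574850, plus strand, in GENCODE 29. Of its exonic bases 6.45% overlap PNPLA8 or THAP5 on the other strand. DNAJB9 was at 47.1, 48.8 and 40.6 CPM in S14 mock libraries (replicates 1, 2 and 3 here and below), against 19.0, 18.7 and 24.2 CPM in EV mock libraries. In CM, DNAJB9 was at 30.9, 35.9 and 32.6 CPM in S14 libraries and 16.6, 15.0 and 19.4 CPM in EV libraries. The S5 line had 18.5, 19.6 and 17.3 CPM of DNAJB9 in CM and 22.7, 22.5 and 20.6 CPM in mock. Every S14 library was above every library of both other lines in the same medium. The log2 fold change of DNAJB9 was 1.14 ± 0.14 (SE) for S14 mock against EV mock and 0.96 ± 0.14 for S14 CM against EV CM (edgeR adjusted p = 6.45e-05 and 0.000391). Against S5 it was 1.05 ± 0.14 in mock and 0.84 ± 0.14 in CM (edgeR adjusted p = 0.000115 and 0.000994).

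XBP1 encodes the transcription factor that IRE1 splicing turns on, and it lies at chr22:28794555-28800597, minus strand. XBP1 was at 199, 204 and 96.1 CPM in S14 mock libraries, against 74.2, 74.9 and 78.2 CPM in EV mock libraries. In CM it was at 148, 161 and 90.1 CPM in S14 libraries and 71.0, 81.2 and 70.0 CPM in EV libraries. S5 libraries had 76.0, 84.5 and 81.3 CPM of XBP1 in CM and 86.7, 92.4 and 96.6 CPM in mock. The S14 libraries lay above the EV libraries in both media, but by much less in replicate 3, and S14 mock replicate 3 lay within the S5 mock range. The log2 fold change against EV was 1.14 ± 0.24 in mock and 0.85 ± 0.24 in CM (edgeR adjusted p = 0.00346 and 0.0302). In CM the call was lost without any 1 of EV CM replicates 1, 2 and 3 or S14 CM replicates 1 and 2 (adjusted p 0.0658 to 0.125). Against S5 it was 0.86 ± 0.24 in mock (adjusted p = 0.0175), a call lost without S14 mock replicate 1 (0.0748) or 2 (0.0887) or S5 mock replicate 1 (0.0535), and 0.72 ± 0.24 in CM, which missed the threshold (adjusted p = 0.0546, and 0.0212 with the replicate number as a block).

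CANX encodes calnexin, the membrane-bound lectin chaperone of the ER, and lies at chr5:179678628-179730925, plus strand. CANX was at 1589, 1568 and 1041 CPM in S14 mock libraries, against 847, 861 and 786 CPM in EV mock libraries. In S5 mock libraries it was at 939.6, 999 and 847 CPM. All 3 S14 mock libraries were above all EV and S5 mock libraries. The log2 fold change was 0.75 ± 0.15 against EV and 0.59 ± 0.15 against S5 (edgeR adjusted p = 0.00304 and 0.0127). The second call was lost without S14 mock replicate 1 (0.0573) or 2 (0.063). In CM the level was 918, 972 and 936 CPM in S14 libraries, 767, 674 and 854 CPM in S5 libraries and 760.5, 751 and 843 CPM in EV libraries. These groups did not overlap either, with S14 higher, but the log2 fold changes of 0.26 ± 0.15 against EV and 0.30 ± 0.15 against S5 did not pass (adjusted p = 0.338 and 0.235).

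In all, 3 of 10 members rose in S14 mock against EV mock, where 11.1% of the 17851 genes tested were called higher and 8.96% lower. For S14 CM against EV CM it was 2 of 10 members, beside 7.44% of all genes called higher and 3.7% lower. Against S5 it was 3 of 10 in mock, beside 11.4% of genes higher and 10% lower, and 1 of 10 in CM, beside 8.9% higher and 4.88% lower. No member was called lower in these 4 comparisons. With the replicate block XBP1 was also called higher in CM against S5, where the block called 14.4% of all genes higher. With the block HSP90B1 was called lower in S14 mock against S5 mock (log2 fold change −0.36, adjusted p = 0.0273), at 861, 806 and 1183 CPM in S14 mock and 1094, 1157 and 1356 CPM in S5 mock libraries, which overlapped, and the block called 20% of all genes lower there. Groups that did not overlap, with S14 higher, were found for 4 of 10 members against EV in mock and 3 of 10 in CM, beside 18.6% and 15.2% of all genes, and for 2 of 10 and 3 of 10 against S5, beside 16.4% and 15.5%. S14 was common to these 4 comparisons, so they are not independent. In bulk RNA a difference in the number of cells in a state cannot be told apart from a difference in RNA per cell.

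**Figure D1:**
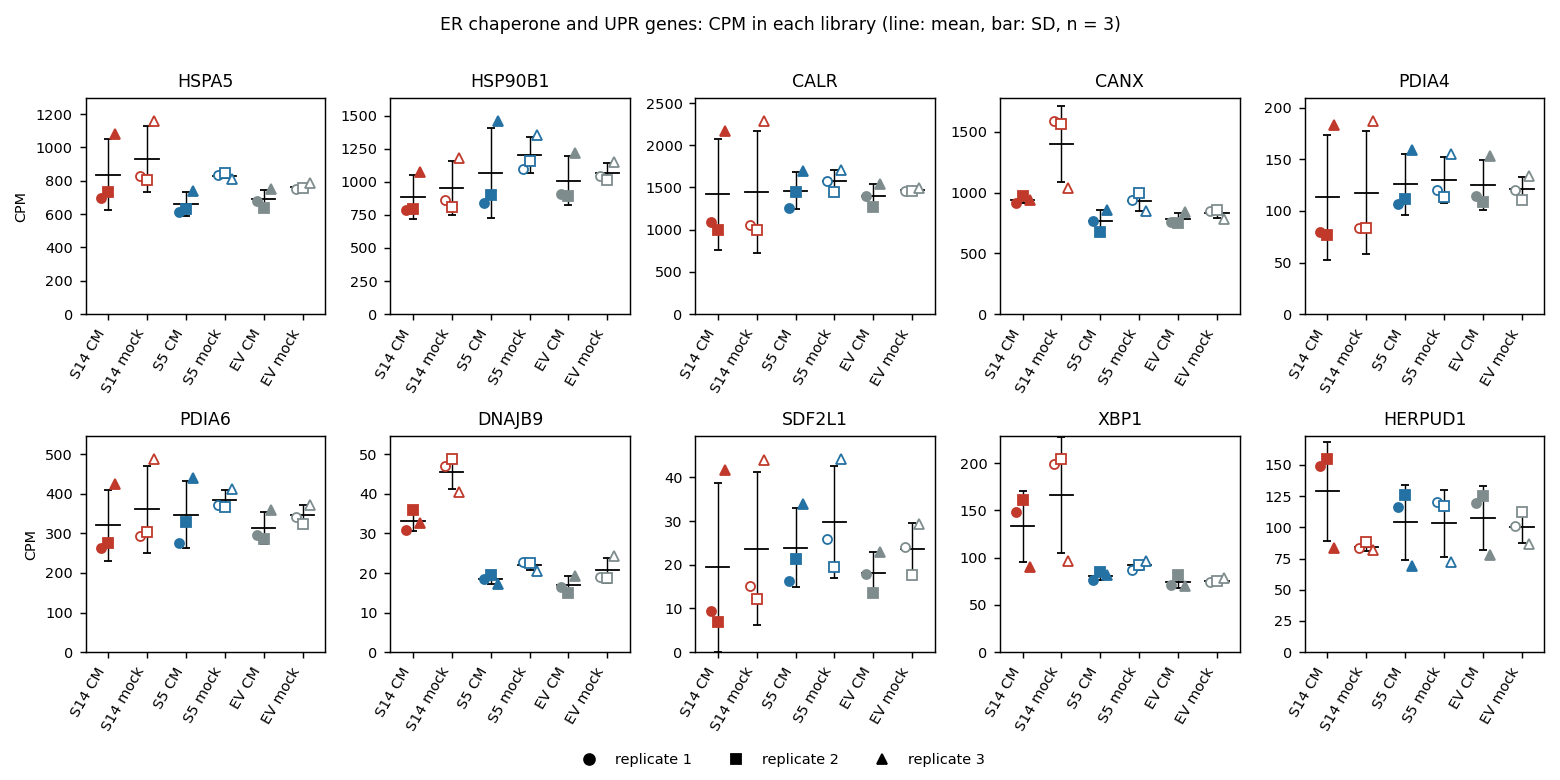
Each panel shows 1 gene, with its CPM on a linear axis from 0 for the 3 libraries of each group, replicates 1, 2 and 3 as circle, square and triangle, filled for CM, and the mean with SD in black. DNAJB9 was higher in every S14 library than in every S5 and EV library, and in S14 the triangles of CALR, PDIA4 and SDF2L1 lay far above the circles and squares.

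CALR, PDIA4, PDIA6 and SDF2L1 behaved in another way. In both media their S14 level was below that of the EV library of the same number in replicates 1 and 2 and above it in replicate 3. CALR encodes calreticulin, the soluble lectin chaperone related to calnexin (chr19:12938578-12944489, plus strand), and 9.95% of its exonic bases overlap AC092069.1 on the other strand. CALR was at 1059, 994 and 2286 CPM in S14 mock libraries, against 1463, 1464 and 1491 CPM in EV mock libraries. In CM it was at 1086, 998 and 2170.4 CPM in S14 libraries and 1403, 1265 and 1544 CPM in EV libraries. In both media S14 replicates 1 and 2 were below every EV library and S14 replicate 3 above every EV library, so the mean differences were near 0 (log2 fold change −0.03 ± 0.30 in mock and 0.01 ± 0.30 in CM). S5 libraries had 1256, 1445 and 1691 CPM of CALR in CM and 1577, 1450.2 and 1707 CPM in mock.

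PDIA4, a protein disulfide isomerase also called ERp72 (chr7:149003062-149028641, minus strand), had the same split. It was at 83.2, 83.0 and 187 CPM in S14 mock libraries and 119.9, 110.3 and 134 CPM in EV mock libraries. In CM it was at 79.4, 76.9 and 183 CPM in S14 libraries and 114, 108 and 153 CPM in EV libraries. SDF2L1, an ER-resident partner of BiP and its co-chaperones (chr22:21642261-21644298, plus strand), was split most widely. SDF2L1 was at 15.0, 12.1 and 44.0 CPM in S14 mock libraries, against 24.0, 17.8 and 29.3 CPM in EV mock libraries. In CM it was at 9.52, 6.87 and 41.8 CPM in S14 libraries and 17.8, 13.5 and 23.0 CPM in EV libraries. Neither gene was called in any comparison of all 18 libraries, and the SE of the SDF2L1 log2 fold change was 0.59 for S14 mock against EV mock.

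HSPA5, which encodes BiP, the main Hsp70 of the ER lumen (chr9:125234853-125241330, minus strand), was at 829, 804 and 1158 CPM in S14 mock libraries and 748, 758 and 785 CPM in EV mock libraries. These groups did not overlap, yet the log2 fold change of 0.28 ± 0.17 did not pass (adjusted p = 0.276). In CM, HSPA5 was at 698, 730.4 and 1081 CPM in S14 libraries and 677, 639 and 752 CPM in EV libraries, which overlapped. S14 was above EV of the same number in all 3 replicates in both media. HSP90B1, the ER Hsp90 that folds Toll-like receptors and integrins (chr12:103930107-103953645, plus strand), was at 861, 806 and 1183 CPM in S14 mock libraries and 1043, 1016 and 1150.3 CPM in EV mock libraries. In CM it was at 784, 795 and 1076 CPM in S14 libraries and 909.8, 889 and 1219 CPM in EV libraries, with S14 below EV of the same number in all 3 replicates. PDIA6, another disulfide isomerase, which acts on IRE1 and PERK as well (chr2:10783391-10837977, minus strand), was at 294, 302 and 487 CPM in S14 mock libraries and 341, 324 and 372 CPM in EV mock libraries. In CM it was at 262, 276 and 424 CPM in S14 libraries and 297, 285 and 359 CPM in EV libraries. Of its exonic bases 25.19% overlap ATP6V1C2 on the other strand. For the strand setting of the counting the sources used here name nothing, so the reads of these 2 genes may not have been told apart.

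Replicate 3 was the higher one in all 6 groups, against the mean of replicates 1 and 2 on the log2 scale, for HSP90B1, CALR, PDIA4, PDIA6 and SDF2L1, and in 5 of 6 groups for HSPA5. HERPUD1 was lower in replicate 3 in all 6 groups. The median of that difference over the groups was 0.92 for SDF2L1, 0.50 for PDIA4, 0.44 for HSP90B1 and −0.68 for HERPUD1. The ranges reached 2.36 for SDF2L1, 1.23 for PDIA4 and 1.16 for CALR. CANX, DNAJB9 and XBP1 were higher in replicate 3 in 2, 2 and 3 of the 6 groups. The mitochondrial share moved the same way as CALR, PDIA4, PDIA6 and SDF2L1 in S14 mock libraries, at 2.00, 1.90 and 5.85%, and in EV mock libraries it was 3.41, 3.42 and 5.05%. Its part in these differences was not tested.

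Without replicate 3, 8 of 10 members were called in S14 mock against EV mock, 3 higher and 5 lower, beside 28% of genes higher and 27.7% lower. CANX, DNAJB9 and XBP1 were the higher ones, and HSP90B1, CALR, PDIA4, SDF2L1 and HERPUD1 the lower ones. Their log2 fold changes there were 0.88 for CANX, 1.34 for DNAJB9, 1.43 for XBP1, −0.52 for CALR, −0.47 for PDIA4 and −0.62 for SDF2L1, each from 2 libraries a group. In CM without replicate 3, S14 against EV gave 4 members higher, CANX, DNAJB9, XBP1 and HERPUD1, and 4 lower, HSP90B1, CALR, PDIA4 and SDF2L1, beside 20.9% of genes higher and 23% lower. Against S5 without replicate 3, 3 members were higher and 6 lower in S14 mock, beside 27.5% of genes higher and 27.4% lower, and 4 were higher and 3 lower in S14 CM, beside 20.3% higher and 22.2% lower. Replicate 3 alone gave differences of 0.62 for CALR, 0.48 for PDIA4 and 0.58 for SDF2L1 in mock, all above 0.

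**Figure D2:**
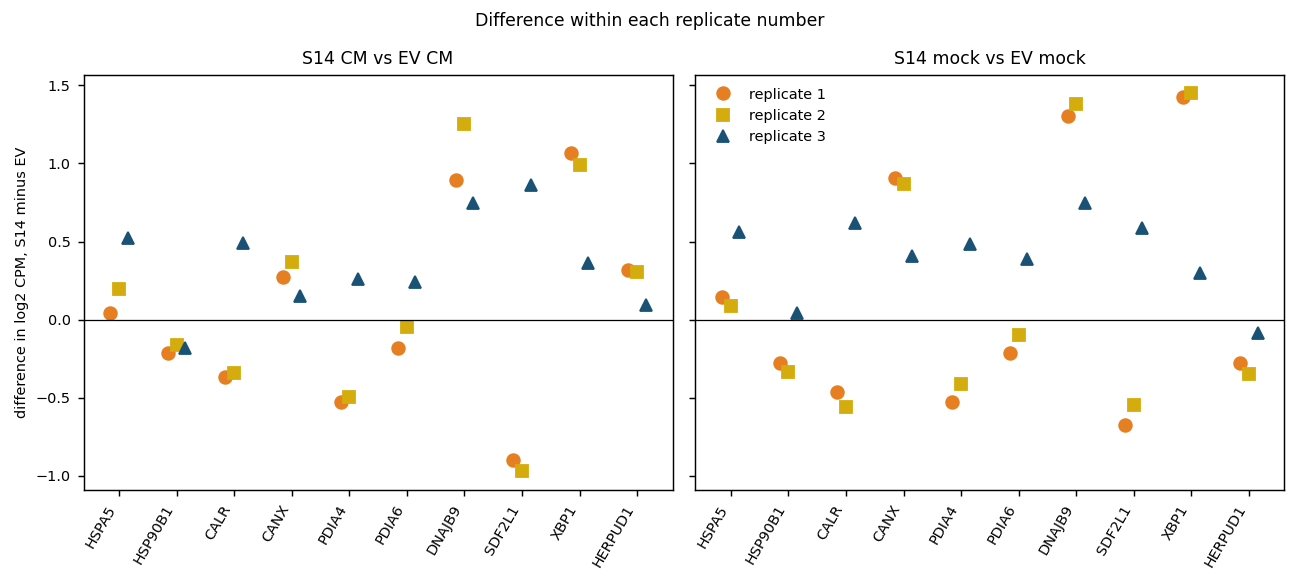
Differences in log2 CPM between the S14 and the EV library of the same replicate number, in CM at left and mock at right, with 1 point per replicate. DNAJB9, XBP1 and CANX were above 0 in all 3 replicates in both media, and CALR, PDIA4, PDIA6 and SDF2L1 were below 0 in replicates 1 and 2 and above 0 in replicate 3.

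In the edgeR fit of all 18 libraries without a replicate block, conditioned medium moved no member past the threshold in any line. For S14 CM against S14 mock, 0 of 10 members passed in edgeR, beside 0.0504% of all genes. An unadjusted p under 0.05 was found for 3 members, beside 2982 of the 17851 genes tested. DESeq2 called 2, both lower, beside 5.02% of genes in either direction. CANX was at 918, 972 and 936 CPM in S14 CM libraries, against 1589, 1568 and 1041 CPM in S14 mock libraries, a log2 fold change of −0.57 ± 0.15 (edgeR adjusted p = 0.0859). DNAJB9 was at 30.9, 35.9 and 32.6 CPM in S14 CM libraries and 47.1, 48.8 and 40.6 CPM in S14 mock libraries, a log2 fold change of −0.46 ± 0.14 (adjusted p = 0.117). Neither pair of groups overlapped. Groups that did not overlap, with CM lower, were found for 2 of 10 members here and for 6.98% of all genes.

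HERPUD1 encodes a membrane protein of the HRD1 complex that passes misfolded chains out of the ER for degradation (chr16:56932048-56944863, plus strand). It was at 149, 155 and 83.4 CPM in S14 CM libraries, against 83.5, 88.1 and 81.9 CPM in S14 mock libraries. S14 CM replicates 1 and 2 stood far above all 3 mock libraries, and replicate 3 stood among them. The log2 fold change was 0.61 ± 0.27 (edgeR adjusted p = 0.27). In EV it was at 119, 125 and 78.2 CPM in CM and 101, 112 and 86.9 CPM in mock libraries, and in S5 at 116, 126 and 69.3 CPM in CM and 121, 117 and 72.2 CPM in mock. HERPUD1 was the 1 member of 10 with an estimate above 0 in S14.

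With the replicate number as a block, 3 members passed in S14 CM against S14 mock, beside 11% of all genes. HERPUD1 was higher (log2 fold change 0.55, adjusted p = 0.0291), and CANX (−0.56, 0.026) and DNAJB9 (−0.46, 0.0412) were lower. Without replicate 3, HERPUD1 was higher (0.77) and HSPA5, CANX, DNAJB9, SDF2L1 and XBP1 were lower (−0.25, −0.80, −0.57, −0.81 and −0.44), beside 21.7% of genes higher and 23.6% lower. Leaving out S14 mock replicate 3 alone, with S14 CM replicate 3 kept, gave 3 calls, CANX, DNAJB9 and XBP1, all lower. The share of all genes called in that fit is not given here.

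In S5, 0 of 10 members passed for CM against mock in edgeR, beside 0.0056% of all genes, with 0 under an unadjusted p of 0.05 and 0 in DESeq2. HSPA5 was at 612, 628 and 741 CPM in S5 CM libraries, against 833, 845 and 814 CPM in S5 mock libraries, which did not overlap (log2 fold change −0.33 ± 0.17). DNAJB9 and XBP1 were the other 2 members lower without overlap, beside 3.24% of all genes. Without replicate 3, HSPA5 (−0.46), HSP90B1 (−0.39), CANX (−0.45) and PDIA6 (−0.31) were called lower in S5, beside 4.19% of genes lower. In EV, 0 of 10 members passed in edgeR, beside 0.0056% of all genes, with 0 under an unadjusted p of 0.05 and 0 in DESeq2, and all 10 overlapped between media, where 4.04% of all genes were lower without overlap. The median log2 fold change of the 10 members for CM against mock was −0.16 in S14, −0.18 in S5 and −0.09 in EV, beside medians of 0.05, −0.0033 and 0.01 over all genes tested. The S14 median was 0.10 without S14 mock replicate 3, −0.44 without S14 CM replicate 3 and −0.23 without all replicate 3 libraries. In each single-library fit, replicate 3 of the other medium was kept.

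**Figure D3:**
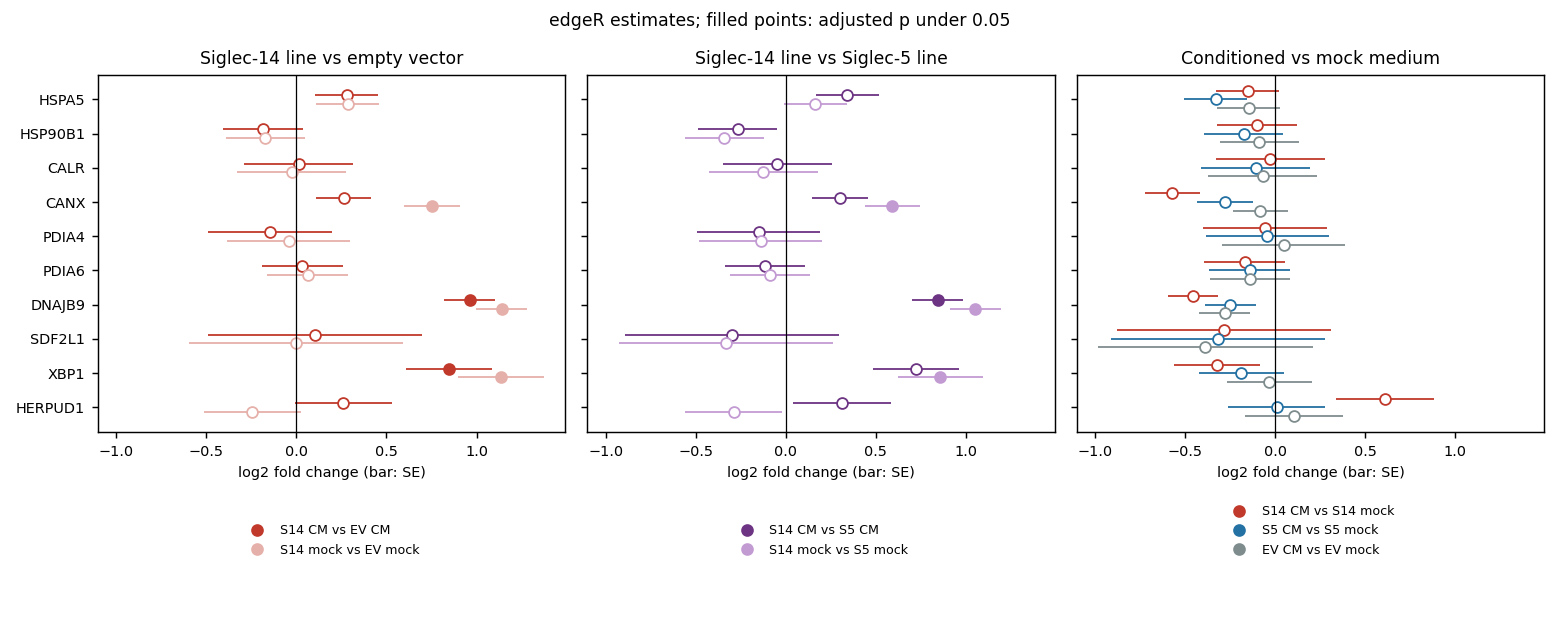
Points are edgeR log2 fold changes with SE for the 10 members, for S14 against EV at left, S14 against S5 in the middle and CM against mock at right, and filled points passed an adjusted p of 0.05. The filled points are DNAJB9 in all 4 line comparisons, XBP1 in 3 and CANX in both mock comparisons.

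S5 and EV were close. In S5 mock against EV mock 0 of 10 members and 0% of all genes passed in edgeR, with 0 members under an unadjusted p of 0.05 and 0 in DESeq2. The same counts were found in CM. Member log2 fold changes lay between 0.04 and 0.33 in mock and between −0.06 and 0.40 in CM, both with SDF2L1 at the top. HSPA5 was at 833, 845 and 814 CPM in S5 mock and 748, 758 and 785 CPM in EV mock libraries, and XBP1 at 86.7, 92.4 and 96.6 against 74.2, 74.9 and 78.2 CPM. These 2 were the members without overlap, both higher in S5, beside 4.31% of all genes.

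Whether CM acted differently between lines was tested as the difference of responses. For the S14 response minus the EV response, 0 of 10 members and 0% of all genes passed in edgeR, and DESeq2 called 0 members. An unadjusted p under 0.05 was found for 1 member, CANX, beside 812 of the 17851 genes tested. The differences were −0.49 ± 0.22 for CANX and 0.51 ± 0.38 for HERPUD1. For S14 minus S5, 0 members and 0% of genes passed, with 0 under an unadjusted p of 0.05 and 0 in DESeq2. HERPUD1 differed by 0.60 ± 0.38. For S5 minus EV the member counts were again 0 in edgeR, beside 0% of genes, 0 at an unadjusted p of 0.05 and 0 in DESeq2. Without replicate 3, CANX (−0.60), XBP1 (−0.44) and HERPUD1 (0.59) passed for S14 minus EV, beside 24.3% of all genes, and HERPUD1 (0.76) for S14 minus S5, beside 21.9%.

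The other genes of the ER pathway were taken from 3 lists. In S14 mock against EV mock, 5 of 25 other folding genes tested were higher and 1 lower, 10 of 30 degradation and translocation genes were higher and 0 lower, and 3 of 8 sensor genes were higher and 2 lower. Their median log2 fold changes were 0.21, 0.28 and 0.44, beside −0.02 over all genes. Of all genes 11.1% were called higher and 8.96% lower. With upper-quartile scaling the degradation and translocation list had 9 higher and 2 lower, and calls over all genes were 44.3% higher, against 55.3% with TMM. With the replicate block the counts were 8 higher and 2 lower, 13 and 1, and 5 and 2, beside 18.7% of all genes higher and 18.6% lower. Without replicate 3 the counts were 11 higher and 5 lower, 18 and 4, and 6 and 2, beside 28% of all genes higher and 27.7% lower. Leaving out EV mock replicate 1 or S14 mock replicate 2 left 6 degradation and translocation genes higher, and leaving out any 1 of EV mock replicates 1 and 2 or S14 mock replicates 1 and 2 left 1 or 2 sensors called. CALU, a calcium-binding protein of the secretory pathway, was at 278 ± 38.9 CPM in S14 mock and 136 ± 18.5 CPM in EV mock libraries (SD, n = 3 each), a log2 fold change of 1.03 ± 0.19. DNAJC1, a BiP co-chaperone, rose by 0.74 ± 0.14 and FKBP14, a prolyl isomerase, by 0.62 ± 0.14 on the log2 scale. ERP29, an ER lumen protein, was lower by the same test (−1.29 ± 0.31). Of the degradation and translocation list, SEC31A of the COPII vesicle coat rose by 1.11 ± 0.21, SRP54 of the signal recognition particle by 0.75 ± 0.16, SYVN1, the HRD1 ubiquitin ligase, by 0.70 ± 0.14 and SSR2 of the translocon by 0.68 ± 0.14.

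Among the sensors, CREB3, a membrane-bound transcription factor, rose by 0.99 ± 0.18 and EIF2AK3, which encodes PERK, by 0.81 ± 0.24 in S14 mock against EV mock. ATF6B (−0.55 ± 0.14) and MBTPS1 (−0.40 ± 0.10), the protease that cuts ATF6, were lower. In CM, 5 of the 25 folding genes were higher in S14 than in EV, among them CALU (1.16 ± 0.20), ERO1A, the ER oxidase (1.17 ± 0.29), DNAJC1 (0.84 ± 0.14) and SIL1, a nucleotide exchange factor of BiP (0.64 ± 0.16). Of the degradation and translocation list, 1 of 30 passed in CM, SSR2 (0.46 ± 0.14). Of all genes 7.44% were called higher and 3.7% lower in this comparison. The folding count was 2 without EV CM replicate 1 and 3 without any 1 of EV CM replicate 2 or S14 CM replicates 1 and 2, and SSR2 was lost without any 1 of these 4 libraries, while the degradation and translocation list had 2 higher without EV CM replicate 3. No sensor passed in CM in edgeR, with 5 of 8 under an unadjusted p of 0.05, beside 4228 of the 17851 genes tested. DESeq2 called 3 sensors, 1 higher and 2 lower, beside 9.61% of all genes higher and 4.95% lower. In edgeR 1 sensor passed without EV CM replicate 3 or S14 CM replicate 3. With the replicate block, the counts in CM were 5 of 30 for degradation and translocation, all higher, and 4 of 8 for the sensors, 2 higher and 2 lower. The block called 12.9% of all genes higher and 10.6% lower there. Without replicate 3 the folding list had 7 higher and 5 lower, the degradation and translocation list 12 and 2, and the sensors 3 and 2. Over all genes it was 20.9% higher and 23% lower.

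The amino acid stress arm, a list of 46 genes of ATF4 targets, amino acid transporters and synthesis enzymes and tRNA synthetases, was set beside the members. In S14 CM against EV CM, 22 of 46 were called higher and 0 lower, and all 46 estimates were above 0, with a median log2 fold change of 1.19. The 10 members had 2 called and a median of 0.18 in the same comparison, and the median over all genes was −0.02. Of all genes 7.44% were called higher and 3.7% lower there. The member median was −0.09 without S14 CM replicate 3, −0.03 without all replicate 3 libraries and 0.13 with the replicate block. DDIT3, which encodes CHOP and is raised through PERK as well as through GCN2, was at 122 ± 46.4 CPM in S14 CM and 26.6 ± 2.58 CPM in EV CM libraries, a log2 fold change of 2.19 ± 0.27 (edgeR adjusted p = 9.84e-05). GDF15, a secreted stress cytokine, rose by 5.63 ± 0.73, WARS1, the tryptophanyl-tRNA synthetase, by 2.16 ± 0.29 and CEBPB, a transcription factor, by 2.11 ± 0.31. With the replicate block 32 of 46 were higher, beside 12.9% of all genes higher and 10.6% lower, and without replicate 3 it was 46 of 46, beside the 20.9% of genes given above. Without single libraries the count was 11 (EV CM replicate 1), 13 (S14 CM replicate 1), 12 (S14 CM replicate 2) or 38 (S14 CM replicate 3). The difference between the 2 lists was not tested.

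In mock the lists were closer. In S14 mock against EV mock 7 of 46 amino acid stress genes were higher and 0 lower, with a median of 0.09, beside 3 of 10 members with a median of 0.03. Both medians were below 0 with upper-quartile scaling, at −0.01 and −0.06, and the member median was −0.22 without S14 mock replicate 3. Of all genes, 11.1% were called higher and 8.96% lower with all libraries. With the replicate block 8 of the 46 amino acid stress genes were higher and 0 lower, beside 18.7% and 18.6% of all genes. Without replicate 3 the amino acid stress counts were 23 higher and 7 lower, beside 28% and 27.7% of all genes. The 4 with the smallest p were CEBPB (2.55 ± 0.32), GDF15 (4.82 ± 0.71), PPP1R15A, the phosphatase subunit that restores translation (1.82 ± 0.31), and ATF3 (4.03 ± 0.69). Against S5, 20 of 46 were higher in S14 CM and 7 of 46 in S14 mock, beside 1 and 3 of the 10 members. Over all genes 8.9% and 11.4% were called higher there. With the replicate block 25 and 9 of the 46 were higher, beside 14.4% and 18.6% of all genes. The 20 in CM became 13 without S5 CM replicate 1 or S14 CM replicate 1, 11 without S14 CM replicate 2 and 36 without S14 CM replicate 3.

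For S14 CM against S14 mock the 2 arms had medians of opposite sign over all libraries. The member median turned to 0.10 when S14 mock replicate 3 was left out, as given above, a fit that kept S14 CM replicate 3. It stayed below 0 with the replicate block (−0.16) and without all replicate 3 libraries (−0.23). The amino acid stress list had a median log2 fold change of 0.96 with 42 of 46 estimates above 0, and the members had −0.16 with 1 of 10 above 0. The folding, degradation and sensor lists had medians of −0.05, −0.17 and −0.10, beside 0.05 for all genes, and the folding median was above 0 without S14 mock replicate 3 (0.05) or S14 CM replicate 2 (0.02), the sensor median without S14 CM replicate 3 (0.0032). No gene of these lists passed in edgeR with all libraries. Without S14 mock replicate 3, 20 amino acid stress genes were higher and 1 lower, and without S14 CM replicate 3 it was 36 and 0. The degradation and translocation list had 5 lower when either 1 of these was left out, and 1 higher without S14 CM replicate 3. Of the amino acid stress list 39 of 46 were under an unadjusted p of 0.05, beside 2982 of the 17851 genes tested. DESeq2 called 26 of the 46 higher, beside 2.51% of all genes. With the replicate block 29 were higher and 1 lower, beside 5.5% of all genes higher and 5.46% lower. PCK2, a mitochondrial ATF4 target, was at 149 ± 64.4 CPM in S14 CM and 50.5 ± 12.5 CPM in S14 mock libraries (log2 fold change 1.56 ± 0.30, edgeR adjusted p = 0.0603). TRIB3, another ATF4 target, was at 175 ± 123 CPM in S14 CM and 32.2 ± 4.75 CPM in S14 mock libraries (2.44 ± 0.51, adjusted p = 0.0605). PHGDH, of serine synthesis, had 3.11 ± 0.64 and the transporter SLC7A5 1.98 ± 0.41.

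Among the ER genes with the smallest p in S14 CM against S14 mock, none of which passed, SEC31A had −0.84 ± 0.21, SEC23B −0.63 ± 0.19, SYVN1 −0.56 ± 0.14, SEC61A1 −0.46 ± 0.16 and ERP44 −0.43 ± 0.12. With the replicate block 6 of 30 degradation and translocation genes were lower and 0 higher, beside 5.46% of all genes lower and 5.5% higher. In S5 and EV the amino acid stress medians for CM against mock were 0.21 and 0.27, with 0 of 46 called in each, 0 under an unadjusted p of 0.05 and 0 in DESeq2. The member medians were −0.18 and −0.09 there, so medians of opposite sign were not particular to S14. Without replicate 3 the amino acid stress list gave 42 higher and 4 lower in S14, 24 and 3 in S5 and 23 and 2 in EV. Over all genes the shares without replicate 3 were 21.7% higher and 23.6% lower in S14, 2.87% and 4.19% in S5, and 1.24% and 1.94% in EV. For the S14 response minus the EV or S5 response, 0 of 46 amino acid stress genes passed in edgeR, with the block or in DESeq2. Under an unadjusted p of 0.05 were 14 and 18, beside 812 and 628 of the 17851 genes tested. Without replicate 3 the counts were 37 higher and 3 lower against EV and 38 and 2 against S5, beside 24.3% and 21.9% of all genes.

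The replicates split both arms. In S14 CM against EV CM, the amino acid stress median was 1.56, 1.38 and 0.25 in replicates 1, 2 and 3, and the member median −0.07, 0.07 and 0.31. In S14 mock against EV mock the amino acid stress medians were 0.33, 0.24 and 0.16 and the member medians −0.25, −0.22 and 0.44. In S14 CM against S14 mock they were 1.13, 1.42 and 0.12 for amino acid stress and −0.21, −0.13 and −0.10 for the members. The amino acid stress arm was therefore smallest in replicate 3 in each of these 3 comparisons, and the S14 minus EV difference of the members largest there in both media.

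**Figure D4:**
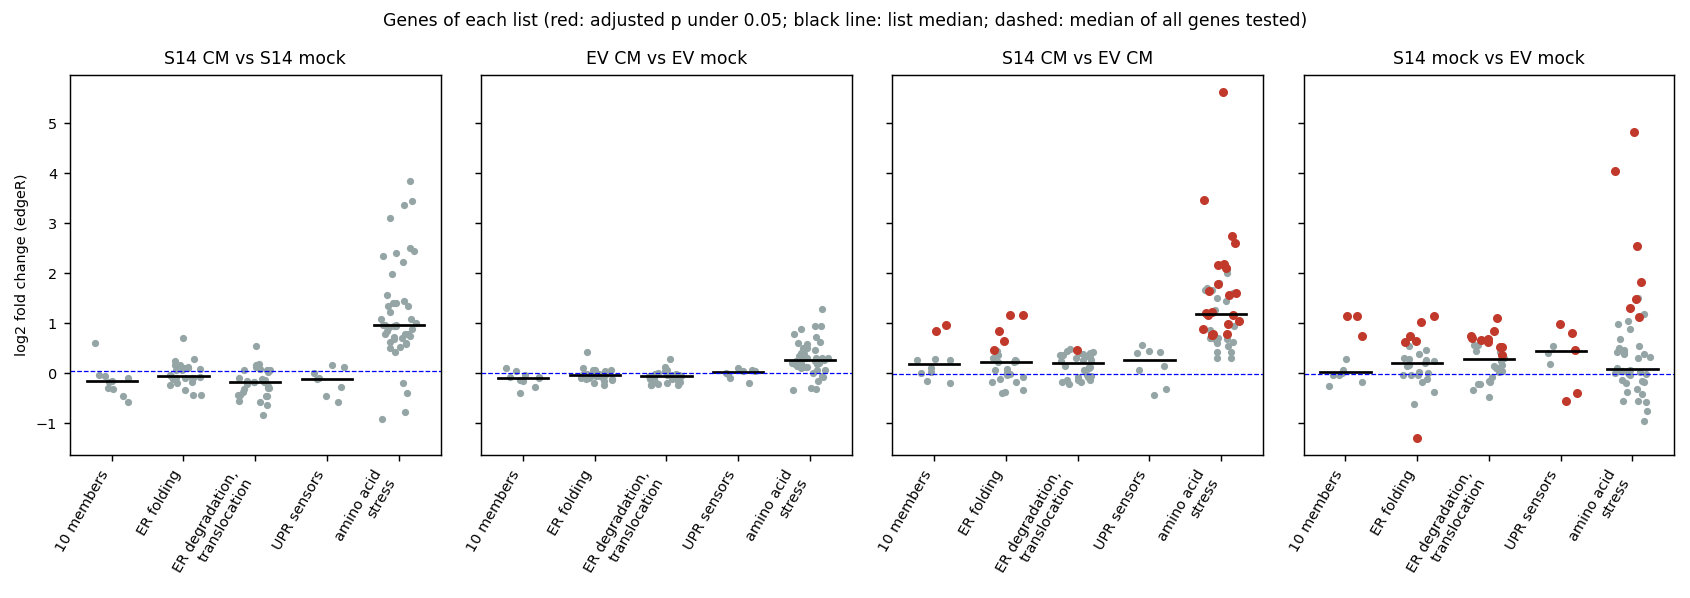
Each point is the edgeR log2 fold change of 1 gene, in red if its adjusted p was under 0.05, for the 10 members, 3 other ER lists and the amino acid stress list in 4 comparisons; black lines are list medians and dashed lines the median of all genes tested. The amino acid stress median was 0.96 in S14 CM against S14 mock and 1.19 in S14 CM against EV CM, and the members' medians were −0.16 and 0.18.

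The members did not follow 1 pattern over the libraries. Pearson's r of log2 CPM over the 18 libraries ran from −0.73 to 0.96 over the 45 pairs of members, and 22 pairs were above 0. These values are descriptions, since the libraries share lines, media and replicate sets. The pair with the highest r was CALR with PDIA4. The 6 genes outside the list with the most similar pattern to the members' standardised mean, of 9640 genes with at least 10 CPM, were ANXA7 (r = 0.94), PNP (0.94), SNHG3 (0.91), PINLYP (0.90), NCOA4 (0.89) and AP2M1 (0.89). With group means removed, their r with the mean of the members was 0.89 (NCOA4) to 0.95 (PNP). The likeness is thus present between libraries of the same group, of which replicate 3 stood apart, and the part of replicate 3 in it was not tested. The mean does not stand for every member. HERPUD1 and XBP1 had a mean r of −0.46 and −0.08 with the other members, and the rest had 0.08 (CANX) to 0.39 (HSPA5).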

How the data were processed

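RNA-seq counts per gene and TPM values were deposited by the authors in 1 table of 18 libraries. Reads were processed with HISAT2 on GRCh38, per the submitters' processing notes; the library kit is stranded, per the labels' protocols, and for the counter and its strand setting the sources used here name nothing. Deposited counts were fitted with edgeR 4.0.16 (R 4.3.3, TMM factors, default expression filter with a count minimum of 10, robust quasi-likelihood fit, 1 mean per group), which left 17851 genes. In all 12 comparisons were tested, with Benjamini-Hochberg adjustment within each and calls at an adjusted p under 0.05. SE is the log2 fold change over the root of F. Deposited TPM was used only for levels between genes. CPM is TMM-scaled, with a prior count of 2 on the log2 scale. DESeq2 1.42.0 was an alternative.

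The members and lists were chosen with earlier results of these data known. All members are named, and for each list up to 4 genes with the smallest p, provided their higher group averaged 1 CPM or more. Positions are from GENCODE 29, and 58516 of the table's 60623 gene IDs matched it. Deviations from group means correlated above 0.1 for all 45 same-numbered pairs (0.155 to 0.794, median 0.391, against −0.372 for other pairs). Replicate 1 and 2 libraries also correlated across numbers, as EV mock 2 did with S5 mock 1 (0.460) and S5 mock 2 (0.412). Of 18 libraries, 14 correlated best on average with their own number. The check thus sets replicate 3 apart and does not show that 1 pairs with 1 or 2 with 2. A fit with the number as a block is given where it changes the call of a member, and for some of the list counts. Processed pseudogene copies had few counts (HSP90B2P 20 to 77, against 10626 to 37671 for HSP90B1). The fitting was tested on simulated counts drawn independently for each library, with no shift shared by replicate 3. That test therefore cannot speak to the part of replicate 3 in these results. Depth was 14962531 to 26045281 counts per library.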

Additional observations from a re-analysis of the deposited data

How the results depend on the processing

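Alternatives were another scaling (RLE, upper quartile), no filter on low counts, DESeq2, a replicate block, a fit of only the groups compared, each library left out in turn, and replicates 1 and 2 alone. Of 1740 values for single members and comparisons, 1677 stayed on their side of the threshold with no called value turning, and 203 of these changed sign while called in neither. A further 47 were called only under the alternative with an unchanged sign, and 13 lost their call. The other 3, not called with all 18 libraries, were called under the alternative with the opposite sign. These 3 came without replicate 3: SDF2L1 in S14 mock against EV mock (−0.62), CALR in S14 CM against EV CM (−0.39) and SDF2L1 in S14 CM against EV CM (−1.01), where the fit of 12 libraries leaves out the S14 libraries that stood above EV. Leaving out single libraries, these 3 values ran from −0.80 to 0.32, from −0.43 to 0.22 and from −1.15 to 0.51, the lowest of each without the S14 replicate 3. DNAJB9 was called in all 4 comparisons of S14 with another line under every alternative run, and the adjusted p of XBP1 in S14 CM against EV CM ran from 4.9e-10 to 0.125.

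Members called without replicate 3 numbered 6 for S14 CM against S14 mock, 4 for S5 CM against S5 mock, 8 for S14 against EV in mock and 8 in CM, 9 and 7 for S14 against S5 in mock and CM, 3 for the S14 minus EV response and 1 for S14 minus S5. The replicate block, which adds the replicate number to the fit, gave 3 for S14 CM against S14 mock and 2 for S14 CM against S5 CM, and lost no call. DESeq2 gave 2 for S14 CM against S14 mock, and both DESeq2 and RLE gave 2 for S14 CM against S5 CM. The fit of only the groups compared gave 1 for S14 CM against EV CM and 1 for S14 mock against S5 mock. Leaving out single libraries gave 0 to 3 for S14 CM against S14 mock, 3 to 3 for S14 mock against EV mock, 1 to 2 for S14 CM against EV CM, 1 to 3 for S14 mock against S5 mock and 1 to 2 for S14 CM against S5 CM. The causes of these changes were not tested.

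Over all genes, S14 CM against S14 mock had 9 calls, but 1956 with the block, 897 with DESeq2 and 8066 without replicate 3. S14 mock against EV mock had 3575, and 6672 with the block and 9921 without replicate 3. Upper-quartile scaling moved the median of all genes in S14 mock against EV mock to −0.12, against −0.02 with TMM, and the share of calls that were higher to 44.3%, against 55.3%; against S5 in mock the share was 43.0%, against 53.2%. SDF2L1 has the fewest counts, 129 in the lowest library, and the widest SE.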
